A study of Homo sapiens with 22 samples.

Results

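The NDRG family comprises 4 genes, NDRG1, NDRG2, NDRG3 and NDRG4. Its members were taken as every probeset that the array annotation assigns to 1 of these genes and to no other gene. This gave 8 of the 54675 probesets: 200632_s_at for NDRG1, 206453_s_at, 214279_s_at and 214278_s_at for NDRG2, 217286_s_at, 224368_s_at and 221082_s_at for NDRG3, and 209159_s_at for NDRG4. The 4 genes stand among 19775 genes that the array names. All 8 probesets were tested, since no filter on low signals was applied.

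NDRG proteins share an alpha/beta hydrolase fold but have no known hydrolase activity. NDRG1, a cytoplasmic protein linked to differentiation, stress and lipid and vesicle transport, is a known target of hypoxia-inducible factors and takes its name from N-myc downstream regulated gene, because MYC and MYCN proteins repress it. NDRG2 is best known in brain, where astrocytes express it, and as a candidate tumor suppressor, NDRG3 protein is stabilised by lactate under low oxygen, and NDRG4 is a gene of neurons and heart. MYCN is the oncogene whose amplification marks aggressive neuroblastoma, a childhood tumor of the sympathetic nervous system.

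Expression was measured on 22 arrays, with 1 array per condition for each of 11 human neuroblastoma cell lines. The lines were cultured for 18 hours at 1% O2 (hypoxia) or at 20% O2 (normoxia). The lines were GI-LI-N, ACN, SHEP-2, SK-N-BE2(C), IMR-32, SK-N-F1, LAN-1, SK-N-SH, GI-ME-N and SHEP21N, the last of them cultured in 2 states. SHEP21N is a SHEP derivative with a MYCN transgene, labelled as without MYCN overexpression when tetracycline was in the medium (here SHEP21N MYCN off) and as with overexpression when it was not (SHEP21N MYCN on). These names follow the labels. No other allele or agent is given in the labels. Values are signals of the Affymetrix MAS5 algorithm in arbitrary units. Changes are log2 ratios of hypoxia over normoxia of signals expressed as multiples of the median of their array, and a level is given as a signal or as a multiple of that median. Each line serves as its own control, so the spread of a change is the spread between lines, and no line was measured more than 1 time per condition.

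To set the NDRG genes against MYCN, the lines were sorted by their MYCN signal. The brightest MYCN probeset, 209757_s_at, placed 5 lines at 100 times the array median or more in normoxia (MYCN-high lines: GI-LI-N, SK-N-BE2(C), IMR-32, LAN-1 and SK-N-SH, 33350 to 55613) and 5 lines under 10 times (MYCN-low lines: GI-ME-N, ACN, SHEP-2 and the SHEP21N pair, 5.43 to 55.3). SK-N-F1, at 5788, fell between. SHEP21N MYCN on was placed among the MYCN-low lines by this signal, although its label gives MYCN overexpression. At this probeset the lines thus form separate clusters of MYCN, and no correlation over all lines is given.

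Several arrays stood apart. The brightest MYCN probeset read 19 in normoxia and 6 in hypoxia in SHEP21N MYCN on, against 6 and 12.7 in SHEP21N MYCN off. A second MYCN probeset, 209756_s_at, read 40.0 in normoxia and 27.9 in hypoxia in SK-N-F1, below the array median. In SHEP21N MYCN on it read 830.2 in hypoxia, 8.99 times the array median, but only 13.7 in normoxia. The hypoxic and normoxic values of SHEP21N MYCN off were 25.3 and 28.7. The label of the normoxic SHEP21N MYCN on array was therefore not borne out by its MYCN signal. That array also had the highest 3' over 5' signal ratios of the control transcripts, a sign of RNA quality, with 67.3 for GAPDH against a median of 1.12 over the arrays and 94.0 for ACTB against a median of 1.61. The SHEP lines derive from SK-N-SH, yet the SK-N-SH arrays had MYCN signals of 33504 in normoxia and 35223 in hypoxia while SHEP-2 had 55.3 and 32.4. The normoxic arrays of IMR-32, SK-N-SH and GI-LI-N correlated with each other at 0.900 to 0.906 over all probesets, above the other 52 pairs of lines at 0.703 to 0.873. The lowest signal was 3.3 on each of the 4 SHEP21N arrays, against 0.0921 to 0.803 on the other arrays. Why it differed was not tested. The main hypoxia changes and MYCN differences are also given without some of these arrays. The rankings of similar genes and the correlations between members use all arrays.

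NDRG1 was higher in hypoxia than in normoxia in 11 of 11 cell lines. Of the 8 NDRG probesets, 1, that of NDRG1, passed the test as higher (limma, adjusted p under 0.05), against 25 of all 54675 probesets (0.0457%), or 26 (0.0476%) in either direction, and none of the 8 passed as lower, against 0.00183% of all probesets. The signal of NDRG1 rose from 70.9 to 1375 in LAN-1, from 547 to 6862 in SHEP-2 and from 461 to 5062 in SK-N-F1. These lines had the steepest changes, at 18.3-fold, 13.4-fold and 10.0-fold. Folds are ratios of signals in units of the array median and so differ slightly from the ratio of the signals themselves. In ACN and GI-ME-N, where NDRG1 already stood at 2461 and 4495 in normoxia, hypoxia brought it to 11550 and 16668, which is 4.60-fold and 3.15-fold. SHEP21N MYCN off went from 469 to 2246 (4.66-fold) and SHEP21N MYCN on from 524 to 2039 (4.52-fold). GI-LI-N went from 597 to 2334 (3.77-fold).

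The smallest changes of NDRG1 were found in SK-N-BE2(C), IMR-32 and SK-N-SH. The signal went from 234 to 746 in SK-N-BE2(C), from 196 to 477 in IMR-32 and from 95.4 to 187 in SK-N-SH, or 2.93-fold, 2.29-fold and 2.16-fold. As a signal, the hypoxic value of SK-N-SH lay below the normoxic value of 9 of the 10 other lines. In array-median units it was 2.59, above normoxic SK-N-BE2(C) (2.29), IMR-32 (2.13) and LAN-1 (1.02) and below the rest. By either measure the hypoxic and normoxic arrays overlapped between lines, although they did not within a line. NDRG1 was above the array median on all 22 arrays. The arrays report RNA pooled over a culture, so more cells with the transcript and more transcript per cell cannot be told apart.

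**Figure D1:**
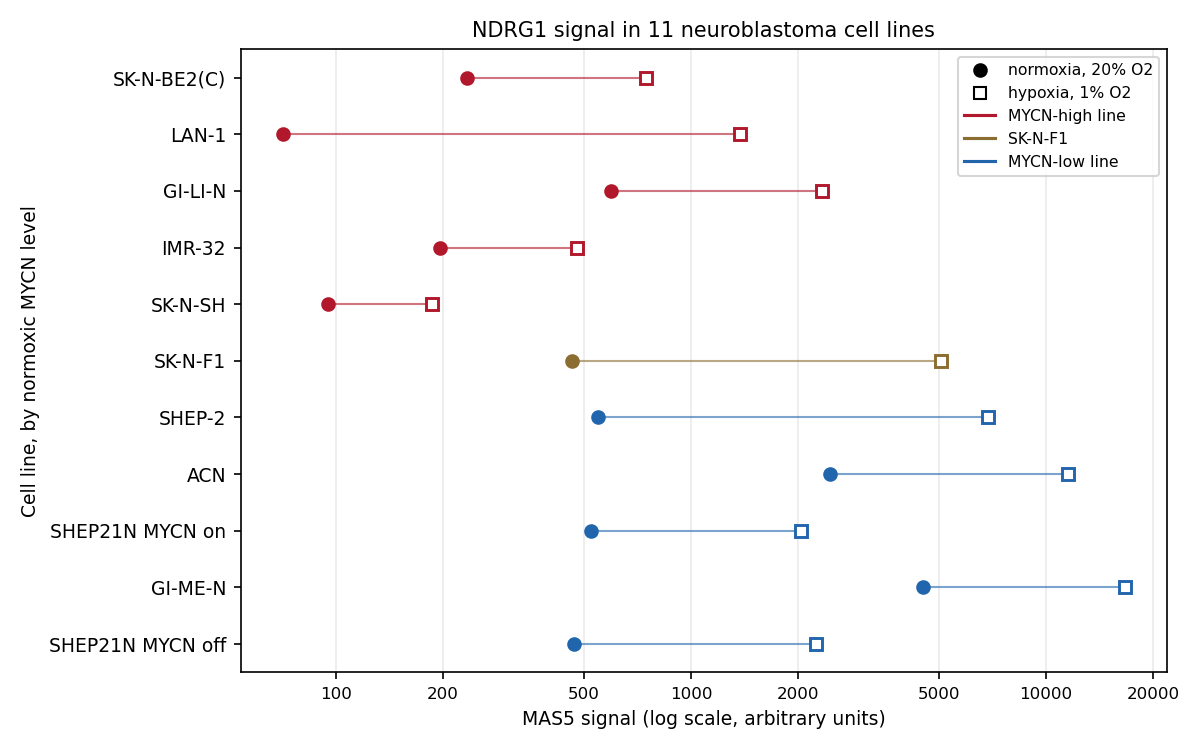
NDRG1 signal (horizontal log axis, arbitrary units) in 11 cell lines ordered from bottom to top by their normoxic MYCN level, with filled circles for normoxia, open squares for hypoxia and colour for the MYCN set. Every square lies to the right of its circle, from 95.4 to 187 in SK-N-SH to 4495 to 16668 in GI-ME-N.

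Over the 11 lines the mean change of NDRG1 was 2.30 on the log2 scale (SE 0.30, 95% confidence interval 1.65 to 2.95), which is 4.92-fold (3.14 to 7.71). The adjusted p was 0.0193 by limma, where each line was a block, and NDRG1 ranked at 14 of all probesets by p. By exact two-sided sign-flip permutation of the 11 line changes, p was 0.000977, which is also the lowest value reachable. The 11 include SHEP21N in 2 states and the related SHEP-2, and this p treats them as independent. Being higher in every line was shared by 170 of 54675 probesets (0.311%). The change varied between lines with an SD of 1.02 around the mean, from 1.11 in SK-N-SH to 4.19 in LAN-1. The limma call depended on the lines included. Leaving out GI-LI-N, ACN, SHEP-2, SK-N-F1 or SHEP21N MYCN off gave an adjusted p of 0.0706, 0.0594, 0.0560, 0.0744 or 0.0546, while the other 6 omissions kept it at 0.0352 to 0.0498, and the change was 2.11 to 2.42 over all 11. Without SK-N-SH the change was 2.42 (adjusted p = 0.0352 by limma), without both SHEP21N lines it was 2.32 (0.130), and with IMR-32, SK-N-SH and GI-LI-N taken as 1 line it was 2.50 (0.106).

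None of the 7 probesets of NDRG2, NDRG3 and NDRG4 passed the limma test, and none had an unadjusted p under 0.05 in it. Over all 54675 probesets, 4424 had such an unadjusted p. The mean changes of the brightest probeset of each gene were 0.01 for NDRG2 (95% confidence interval -0.93 to 0.94, adjusted p = 0.998 by limma), 0.10 for NDRG3 (-0.20 to 0.39, 0.881) and 0.04 for NDRG4 (-0.52 to 0.60, 0.980). The interval of NDRG3 is the narrowest of the 3 and leaves out a doubling, while that of NDRG2 leaves room for a change of nearly 2-fold in either direction. The difference between genes was tested itself, in the 3 pairs that NDRG1 forms with its relatives. The change of NDRG1 exceeded that of NDRG3 by 2.20 ± 0.99 (SD, n = 11) in 11 of 11 lines and that of NDRG4 by 2.26 ± 1.08 in 11 of 11 lines, with p = 0.000977 for each by the exact sign-flip permutation test (0.00146 after Benjamini-Hochberg over the 3 pairs). It exceeded that of NDRG2 by 2.29 ± 2.01 in 10 of 11 lines (exact permutation p = 0.00586, adjusted 0.00586). The exception was SK-N-SH, where NDRG1 changed by 1.11 and NDRG2 by 2.07, with both NDRG2 signals below the array median. With a floor of 50 on the signals the difference was 2.57 and the exact permutation p was 0.000977, which requires the same sign in all lines. These tests also count the related SHEP lines as independent. With the 3 SHEP lines averaged, the exact permutation p was 0.0156 for NDRG2 and 0.00391 each for NDRG3 and NDRG4.

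**Figure D2:**
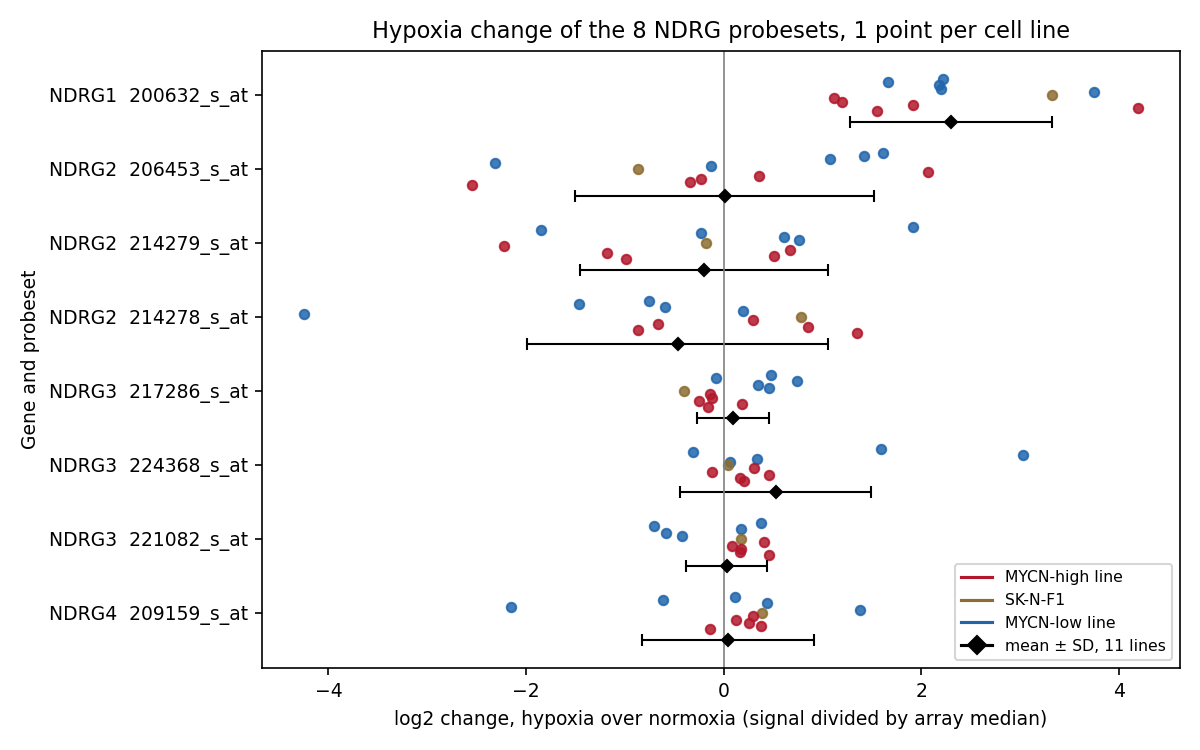
Hypoxia change (horizontal axis, log2 of hypoxia over normoxia) of the 8 NDRG probesets, with 1 point per cell line coloured by MYCN set and a black diamond with bar for the mean ± SD of the 11 lines. All points of NDRG1 lie between 1.11 and 4.19, while the points of every other probeset fall on both sides of 0.

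NDRG4 differed strongly between lines, and its hypoxia change lay between -0.61 and 0.44 in 9 of 11 of them. Its signals in normoxia and hypoxia were 2878 and 2833 in SK-N-BE2(C), 1369 and 1578 in IMR-32, 967 and 1333 in LAN-1, and 911 and 1130 in GI-LI-N. They were 860 and 1232 in SK-N-F1, 563 and 625 in SK-N-SH, and 630.3 and 702 in SHEP21N MYCN off. The lowest lines were GI-ME-N with 346 and 267, SHEP21N MYCN on with 226 and 263, ACN with 125 and 28.6, and SHEP-2 with 83.8 and 204. The order of the lines was thus nearly kept between conditions, with a Spearman rho of 0.982 over the 11 lines given as a description. NDRG4 was higher in hypoxia in 8 of 11 lines, and the exact sign-flip permutation p of its change was 0.864. The changes outside -1 to 1 belonged to the lowest lines, with -2.15 in ACN and 1.38 in SHEP-2, and NDRG4 was below the array median on 3 of the 22 arrays.

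The start regions of NDRG4 and NDRG2 are shown because the core of the hypoxia response element, read by hypoxia-inducible factors, can be looked up in them. The promoter windows available here included none of NDRG1 or NDRG3, so those genes were not searched. Promoter windows of RefSeq on build GRCh38.p14, from 250 bases before to 50 bases after a start site, were searched on both strands for ACGTG and GCGTG, the cores of that element, and for CACGTG, the MYC and MYCN E-box, which itself contains ACGTG. The window of NDRG4 with the most matches held 4 of GCGTG, at -163, -79, -71 and -17 from the start, whereas the other 3 windows of NDRG4 held no match. Of 5 NDRG2 windows, 3 held 1 GCGTG each, but 2 of them overlap and share the same match, and no window of either gene held ACGTG or CACGTG. Over 35116 promoter windows of the same length, 36.5% held GCGTG, 21.4% ACGTG and 7.26% CACGTG. The 250 bases before the start are printed 5' to 3' on the gene's strand, with capitals for GCGTG or its complement CACGC. The NDRG4 stretch is chr16:58463465-58463714 on the plus strand and the NDRG2 stretch is chr14:21025106-21025355 on the minus strand.
NDRG4: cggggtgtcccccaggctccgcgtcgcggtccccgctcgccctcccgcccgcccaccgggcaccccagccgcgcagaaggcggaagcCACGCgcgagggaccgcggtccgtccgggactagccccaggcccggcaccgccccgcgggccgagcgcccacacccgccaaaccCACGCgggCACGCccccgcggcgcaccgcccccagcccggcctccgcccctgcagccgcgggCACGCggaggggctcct
NDRG2: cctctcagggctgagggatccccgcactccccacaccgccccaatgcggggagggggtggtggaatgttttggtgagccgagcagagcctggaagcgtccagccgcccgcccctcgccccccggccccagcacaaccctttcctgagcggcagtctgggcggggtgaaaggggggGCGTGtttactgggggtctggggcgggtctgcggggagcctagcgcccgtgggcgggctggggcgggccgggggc
The matches are letters in these windows and no record of binding, and neither gene passed the hypoxia test above.

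NDRG3 had the narrowest span between lines of the 4 genes, taken at the brightest probeset of each. At 217286_s_at the signals in normoxia ran from 2014 in SHEP-2 over a median of 2569 to 5015 in SHEP21N MYCN off, a span of 3.60-fold in units of the array median. In hypoxia they ran from 1772 in GI-LI-N over a median of 2638 to 7165 in SHEP21N MYCN off. Both SHEP21N lines stood above the 9 other lines in both conditions. The SHEP21N arrays also differed from all others in their lowest signal, so line and array handling cannot be told apart here. The change was positive in 5 of 11 lines: SHEP21N MYCN on 0.74, SHEP21N MYCN off 0.48, SHEP-2 0.46, ACN 0.35 and LAN-1 0.18. It lay between -0.40 and -0.08 in the other 6 lines. Without both SHEP21N lines the mean change of 0.10 became -0.017.

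The other 2 probesets of NDRG3 differed from the brightest one. At 224368_s_at the mean change was 0.52 (SE 0.28, adjusted p = 0.654 by limma) and 9 of 11 lines were higher in hypoxia. The exact sign-flip permutation p for this single probeset was 0.0381, unadjusted. The size of the mean change came mostly from the SHEP21N lines. Their signal went from 133.6 to 939.5 (MYCN on, change 3.03) and from 373 to 1156 (MYCN off, 1.59). The changes of the other 9 lines lay between -0.32 and 0.46. Both normoxic values belonged to arrays with high 3' over 5' ratios of ACTB, 94.0 and 5.05, the highest of the 22 arrays, and the part of RNA quality in this result was not tested. Without both SHEP21N lines the change was 0.13 (SE 0.11, adjusted p = 0.762 by limma). At 221082_s_at the mean change was 0.03 (adjusted p = 0.975 by limma), with 8 of 11 lines higher and all 5 MYCN-high lines between 0.09 and 0.46. ACN, SHEP-2 and GI-ME-N were lower in hypoxia at that probeset, with changes of -0.58, -0.42 and -0.70.

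**Figure D3:**
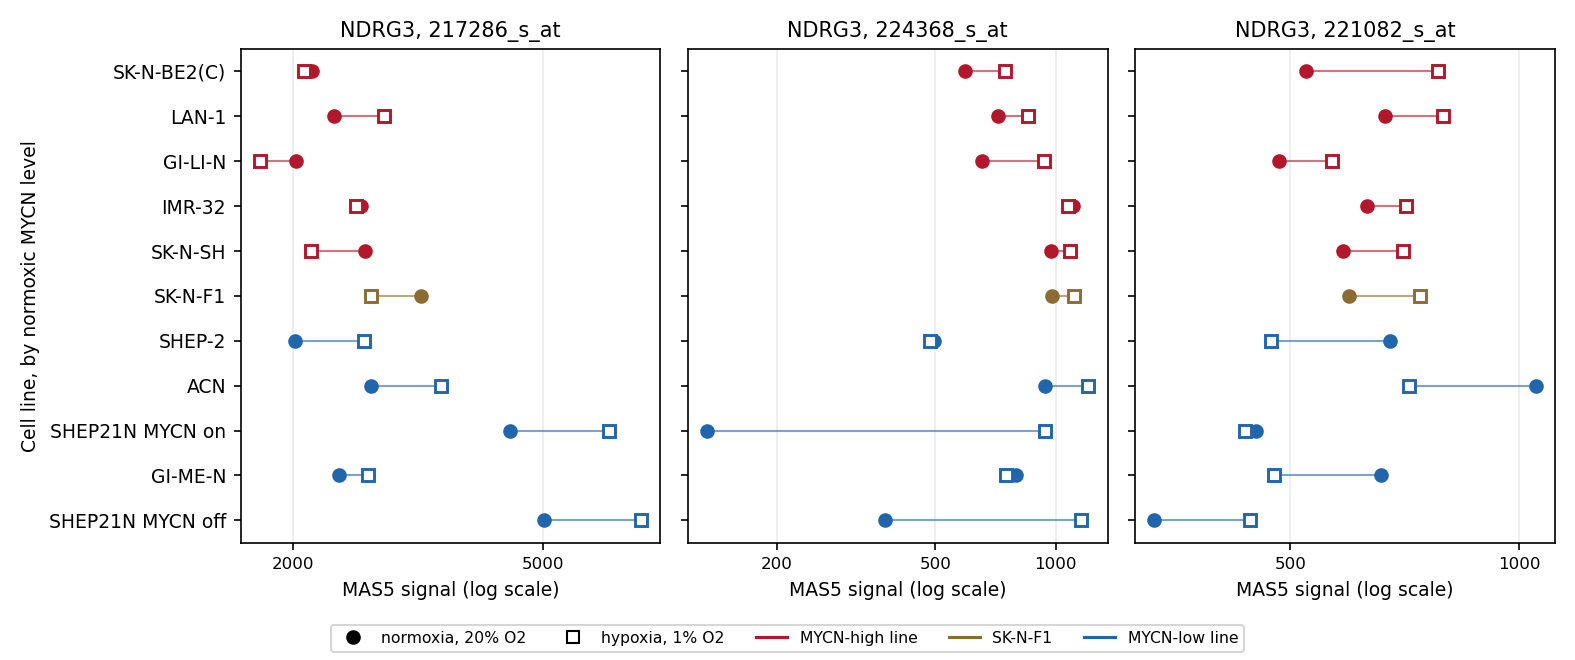
Signals of the 3 NDRG3 probesets (horizontal log axes, arbitrary units, a scale per panel) in the 11 cell lines, with filled circles for normoxia and open squares for hypoxia. The long bar at 224368_s_at is SHEP21N MYCN on, from 133.6 to 939.5, and the SHEP21N lines are the highest at 217286_s_at.

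NDRG2 was dim, and its probesets did not move together. The brightest, 206453_s_at, lay below the array median on 13 of 22 arrays, 214279_s_at on 14 and 214278_s_at on 21. At 206453_s_at the normoxic signals ran from 14.4 in GI-LI-N over a median of 138 to 347 in ACN, and the hypoxic signals from 12.7 in GI-LI-N over a median of 60.8 to 588 in SHEP21N MYCN off. The largest falls were from 347 to 71.1 in ACN (-2.32) and from 255 to 47.3 in SK-N-BE2(C) (-2.55). The largest increases were from 16.0 to 60.8 in SK-N-SH (2.07) and from 187 to 588 in SHEP21N MYCN off (1.61). With 5 of 11 lines higher and an SD of 1.52 between lines, no common direction was seen.

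The other NDRG2 probesets gave means of -0.20 (SE 0.36, adjusted p = 0.912 by limma) at 214279_s_at and -0.47 (SE 0.43, adjusted p = 0.805) at 214278_s_at. At 214278_s_at the normoxic SHEP-2 array read 181, the only one above the array median, and the hypoxic one 8.94, so the size of that fall rests on a signal far below the array median. Over the 11 lines the changes of the 3 probesets correlated at -0.15, -0.32 and -0.35, given as a description of points that share arrays. A line that was higher at 1 probeset was often lower at another: SK-N-SH changed by 2.07 at 206453_s_at and by -2.22 at 214279_s_at.

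**Figure D4:**
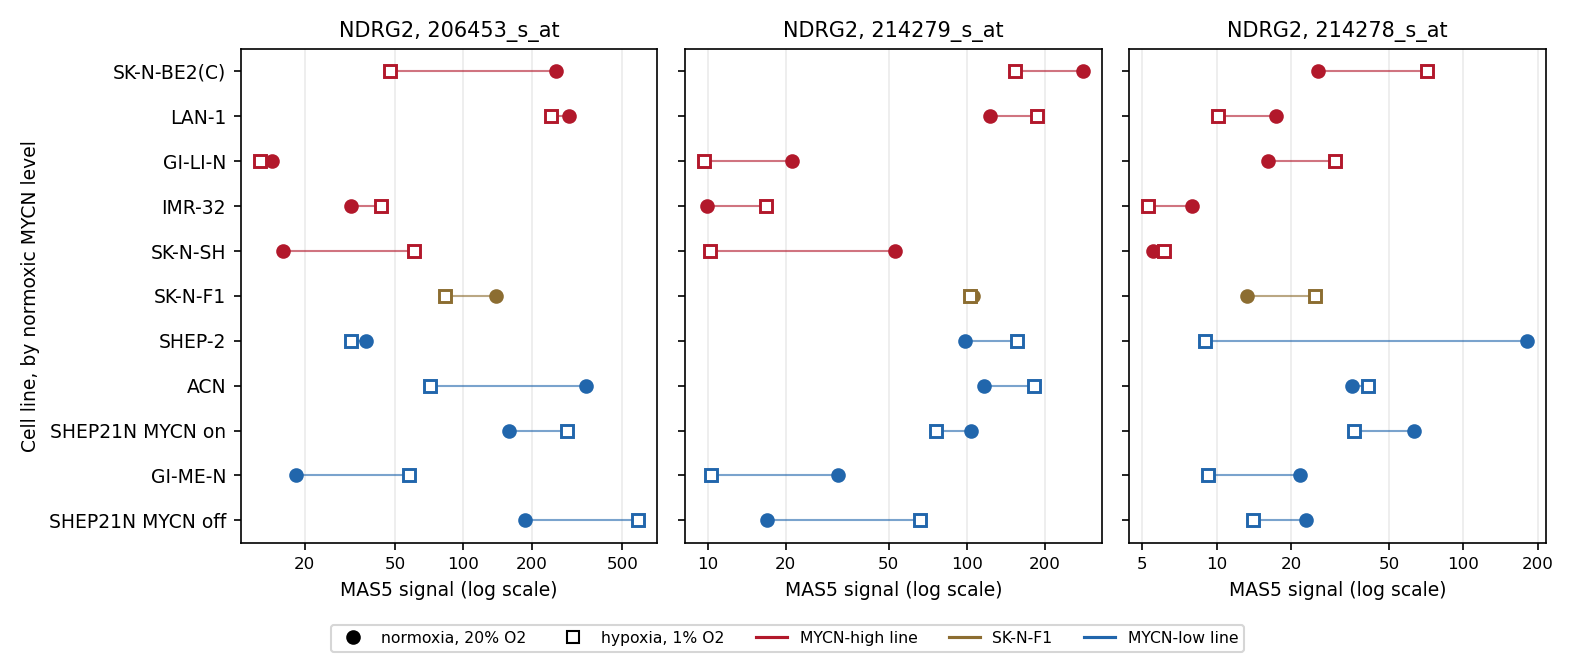
Signals of the 3 NDRG2 probesets (horizontal log axes, arbitrary units, a scale per panel) in the 11 cell lines, with filled circles for normoxia and open squares for hypoxia. Squares and circles change sides from line to line, and most values lie under 200.

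Of the 8 probesets, 5 passed the limma F-test for differences between cell lines, a share near the 52.4% of all probesets. The F values were 18.1 for NDRG4 (adjusted p = 0.00011), 12.3 for NDRG1 (0.000478), 6.98 for NDRG3 at 217286_s_at (0.00409) and 4.77 for NDRG2 at 206453_s_at (0.0160). These 4 kept their call when any 1 line was left out, except NDRG2 without GI-LI-N (adjusted p = 0.0563 by limma). NDRG2 at 214278_s_at (0.314) and NDRG3 at 224368_s_at (0.190) and 221082_s_at (0.0562) did not pass. The order of the lines in normoxia and in hypoxia had a Spearman rho of 0.873 for NDRG1, 0.855 for NDRG3 and 0.455 for NDRG2, as descriptions over 11 lines. By the mean of both conditions NDRG1 was highest in GI-ME-N, followed by ACN, SK-N-F1, SHEP-2, GI-LI-N, SHEP21N MYCN off, SHEP21N MYCN on, LAN-1, SK-N-BE2(C), IMR-32 and SK-N-SH. NDRG4 was highest in SK-N-BE2(C), followed by LAN-1, IMR-32, SK-N-F1, GI-LI-N, SK-N-SH, SHEP21N MYCN off, GI-ME-N, SHEP21N MYCN on, SHEP-2 and ACN. In none of the 4 genes did neighbours in the order differ by more than the 95% least significant difference, which was 1.52 for NDRG1 and 1.31 for NDRG4 on the log2 scale. The span from the lowest to the highest line in normoxia was 62.5-fold for NDRG1 and 44.9-fold for NDRG4.

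The mean NDRG1 level was lower in the MYCN-high lines, and the sets overlapped. In normoxia its level was 1.02 to 6.32 times the array median in the MYCN-high lines and 4.10 to 63.8 times in the MYCN-low lines, and SK-N-F1 stood at 5.81. The mean log2 level was 2.34 higher in the MYCN-low lines, and the MYCN-low line was the higher one in 22 of 25 pairs of lines. GI-LI-N lay above all 3 SHEP lines. Every MYCN-high line below every MYCN-low line was found for 2.72% of all probesets in normoxia and 2.75% in hypoxia, and for no NDRG probeset. In hypoxia NDRG1 stood at 2.59 to 23.8 times the array median in the MYCN-high lines and at 22.1 to 201 times in the MYCN-low lines (difference 2.74, 23 of 25 pairs). GI-LI-N was the only MYCN-high line above a MYCN-low line, and the lines it exceeded in hypoxia were the SHEP21N pair. Of this pair, SHEP21N MYCN on, which gave the 22.1, counts as MYCN-low against its label. Without GI-LI-N, or with it averaged with IMR-32 and SK-N-SH, the sets did not overlap in either condition. In hypoxia they also did not overlap with the 3 SHEP lines averaged. With both SHEP21N lines left out the sets still overlapped in normoxia (difference 3.05) but not in hypoxia, where the highest MYCN-high line had a log2 level of 4.57 and the lowest MYCN-low line 5.78. The hypoxia change of NDRG1 overlapped between the sets, from 1.11 to 4.19 in the MYCN-high lines and from 1.66 to 3.74 in the MYCN-low lines, with means 0.41 apart. Every MYCN-high line below every MYCN-low line in the change was found for 0.382% of all probesets, the reverse for 0.578%, and neither for any NDRG probeset. NDRG3 at 217286_s_at came near the first order, with 24 of 25 pairs of lines and mean changes of -0.10 in the MYCN-high and 0.39 in the MYCN-low lines. The exception there was the pair of LAN-1 (0.18) and GI-ME-N (-0.08), and the sets did not overlap when LAN-1 or GI-ME-N was left out. For NDRG1 the largest change of all lines, 4.19, was that of LAN-1, a MYCN-high line.

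NDRG4 lay the other way. In normoxia its level was 7.08 to 28.2 times the array median in the MYCN-high lines and 0.627 to 6.83 times in the MYCN-low lines, without overlap, as 5.42% of all probesets were arranged. In hypoxia the ranges were 8.69 to 25.5 and 0.217 to 7.41 times, an arrangement held by 5.83% of all probesets. The mean log2 difference between sets was -2.64 in normoxia and -2.98 in hypoxia, as MYCN-low minus MYCN-high. The gap rests on SK-N-SH and SHEP21N MYCN off, at 7.08 and 6.83 times in normoxia, and the sets overlapped with the signals as deposited and after quantile normalization. With both SHEP21N lines left out the sets stayed apart, with a lowest MYCN-high log2 level of 2.82 against a highest MYCN-low level of 2.30 in normoxia and 3.12 against 1.69 in hypoxia. For the brightest probesets of NDRG3 and NDRG2 the sets overlapped, with differences of 0.15 and 0.48. Only at 221082_s_at of NDRG3, and only in hypoxia, was every MYCN-high line above every MYCN-low line (5.78 to 10.8 against 3.77 to 5.75 times), and there too the signals as deposited overlapped (567 to 793 against 436 to 715).

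**Figure D5:**
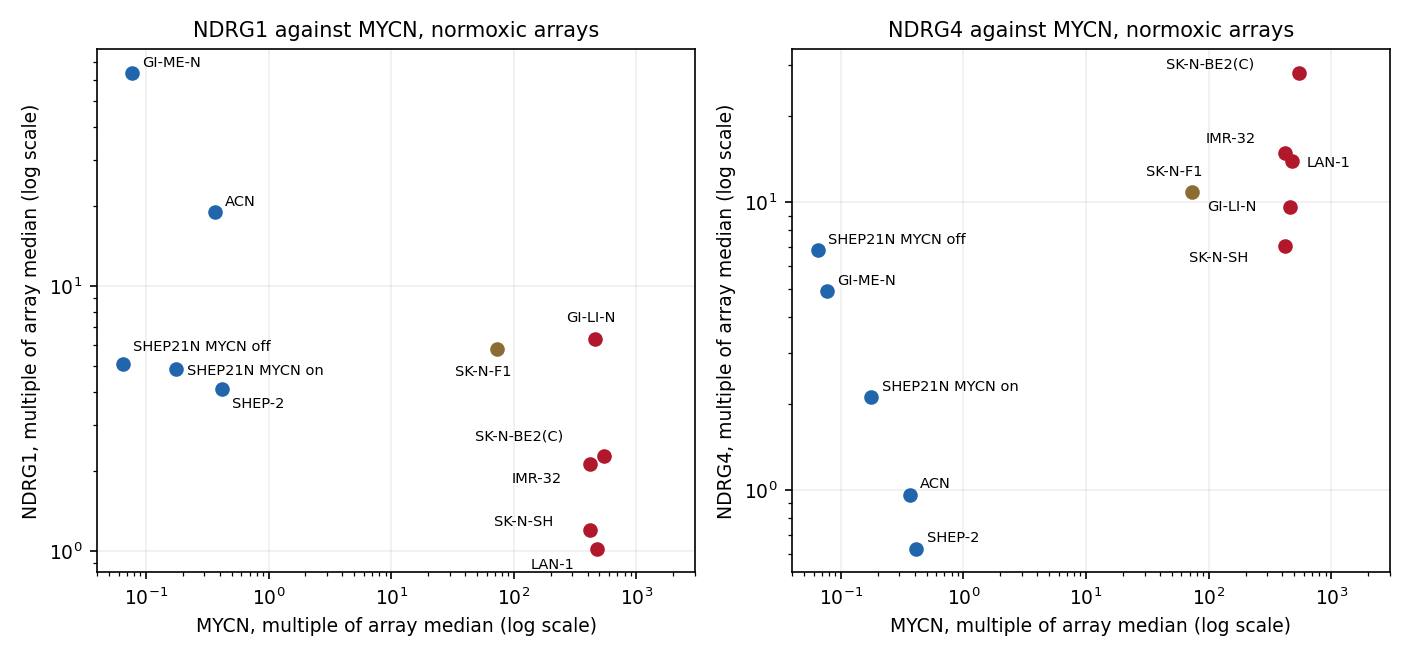
Normoxic level of NDRG1 (left) and NDRG4 (right) against that of MYCN, all as multiples of the array median on log axes, with 1 point per cell line coloured by MYCN set. NDRG1 runs from 1.02 in LAN-1 to 63.8 in GI-ME-N, with GI-LI-N at 6.32 among the MYCN-low lines, and NDRG4 lies at 7.08 or more in all MYCN-high lines.

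The MYCN sets also differed in markers of neuroblastoma cell state, so MYCN and cell state cannot be told apart here. In array-median units and normoxia, of 6 noradrenergic markers 5 (HAND2, GATA3, ISL1, DBH and CHGA) were in every MYCN-high line above every MYCN-low line, and TH overlapped. That order was held by 5.42% of all probesets. The summed normoxic signal of the 6 markers was 24596 to 57287 in the MYCN-high lines and 378 to 3548 in the MYCN-low lines. In the MYCN-low lines TH and DBH were below the array median on every normoxic array. Of 7 mesenchymal markers, 3 (SNAI2, YAP1 and CD44) were lower in every MYCN-high line, an order held by 2.72% of all probesets. PRRX1, FN1, VIM and COL1A1 overlapped. The summed mesenchymal signal was 12377 to 31555 against 62716 to 150353. VIM alone, which overlapped, read 8624 to 28855 against 20292 to 103801. SK-N-F1, with NDRG4 at 10.8 times the array median, had a noradrenergic sum of 25398 and a mesenchymal sum of 22874.

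Within SHEP21N the 2 culture states can be set side by side, with 1 array each and no test. NDRG1 differed by -0.06 in normoxia and -0.10 in hypoxia (log2, MYCN on minus off). In hypoxia the second MYCN probeset read 830.2 in the MYCN on state against 25.3, below the array median, in the MYCN off state, while the brightest read 6 against 12.7. In normoxia neither MYCN probeset reached the array median in either state. NDRG4 was lower in the MYCN on state, by -1.70 in normoxia and -1.38 in hypoxia. By label this is the opposite order of that between the MYCN-high and MYCN-low lines. The normoxic MYCN on array had the high 3' over 5' ratios, 67.3 for GAPDH and 94.0 for ACTB. The part of RNA quality in the SHEP21N differences was not tested. NDRG3 at 217286_s_at differed by -0.40 and -0.13, and NDRG2 at 206453_s_at read 159 against 187 in normoxia and 287 against 588 in hypoxia.

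Genes known to act on NDRG proteins or their genes were examined by 1 probeset per gene, the brightest. Of 8 measured regulators, which include MYCN, MYC, HIF1A, EPAS1 and EGR1, none passed the limma test of hypoxia. None had an unadjusted p under 0.05 in it either, against 4424 of all 54675 probesets. The median change of the list was -0.08 against -0.02 over all probesets. The smallest p values were those of EGR1 (-0.28, p = 0.196), MYC (-0.26, p = 0.237) and ARNT (-0.22, p = 0.277). MYC, which like MYCN can repress NDRG1, read 3.83 to 87.8 in the MYCN-high lines and 77 to 6964 in the MYCN-low lines in normoxia. These ranges overlap slightly. EPAS1, the gene of the hypoxia-inducible factor HIF-2 alpha, read 8.75 to 990 and 384 to 5452 in these sets. HIF1A overlapped more closely, at 9913 to 18758 and 7285 to 27512.

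Of 8 measured kinases and binding partners of NDRG1, none passed and none had an unadjusted p under 0.05 by limma, with a median change of 0.02. The latter was reached by 4424 of all 54675 probesets for the unadjusted p. RABAC1 (0.29, p = 0.187), SGK2 (0.50, p = 0.329) and SGK1 (0.15, p = 0.604) came closest. SGK1, a kinase that phosphorylates NDRG1, read 13.0 to 1436 in the MYCN-high lines and 1176 to 27052 in the MYCN-low lines. RAB4A, the gene of a recycling-endosome GTPase bound by NDRG1, was in array-median units the member of this list with every MYCN-high line above every MYCN-low line. That order was held by 5.42% of all probesets in normoxia, and the signals of RAB4A overlapped (2544 to 5142 against 663 to 2603). By signal GSK3B, a kinase of NDRG1, was so arranged (2987 to 4136 against 1531 to 2927), but it overlapped in array-median units.

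Of 8 other genes reported as repressed by MYCN, none passed the limma test of hypoxia, and the median change was 0.13. An unadjusted p under 0.05 was found for 2 of them, against 4424 of all 54675 probesets. None separated the MYCN sets in normoxia. Of all probesets, 2.72% had every MYCN-high line below every MYCN-low line and 5.42% the reverse. TGM2, a transglutaminase, changed by 0.56 (p = 0.0199, adjusted p = 0.534 by limma), CCL2, a chemokine, by 1.15 (p = 0.0226, adjusted p = 0.553), and INHBA, a subunit of activin, by -0.82 (p = 0.141). In normoxia TGM2 read 4.89 to 141 in the MYCN-high lines and 24.2 to 3067 in the MYCN-low lines. The median difference of the list between the sets was 1.24 on the log2 scale, as MYCN-low minus MYCN-high, against 2.34 for NDRG1 and -0.05 over all probesets.

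The genes whose log2 levels were most like those of each member were ranked by Pearson correlation over the 22 arrays among 12518 genes. NDRG1 was most like BHLHE40 (0.793), P4HA2 (0.789) and PLOD1 (0.784), a transcriptional repressor and enzymes of collagen hydroxylation. Among them P4HA2 passed the hypoxia test (1.24, adjusted p = 0.0304 by limma), and BHLHE40 (1.71, adjusted p = 0.0560) and PLOD1 (0.69, adjusted p = 0.0926) did not. NDRG4 was most like REEP2 (0.941), HAND2 (0.927) and NMNAT2 (0.911), of which HAND2 is also a noradrenergic marker. NDRG3 was most like MTCH1 (0.913), BABAM1 (0.901) and HARS1 (0.899), and NDRG2 like DDHD2 (0.861), MRPL20-AS1 (0.840) and HMCES (0.801). Among the members themselves the correlations were 0.63 for NDRG2 with NDRG3 and -0.41 for NDRG1 with NDRG4, and the other 4 pairs lay between -0.07 and 0.10. All points share arrays and lines, and the values are descriptions.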

How the data were processed

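The authors extracted RNA from 11 neuroblastoma cell lines after 18 hours in hypoxia or normoxia, hybridised it to arrays of the type HG-U133 Plus 2.0 (Affymetrix) and deposited MAS5 intensity values of Microarray Suite 5.0 scaled to an average of 500, on a linear scale. No image or probe-level values were used here, and fold changes of dim probesets depend on the background handling of that algorithm. The genome build behind the probe annotation is not given in the sources used here. Precision is limited by 1 array per line and condition.

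Each intensity was divided by its array median (69.4 to 133.6) and taken as log2. Hypoxia was compared with normoxia in limma 3.58.1 (R 4.3.3) over all 54675 probesets, blocked by cell line, the pairing that the labels give, and Benjamini-Hochberg adjustment at 0.05. Line differences used the F-test of the same model. Single values were tested by exact two-sided sign-flip permutation over the lines (numpy 2.4.6), and Spearman correlations used scipy 1.17.1. A gene with several probesets is led by its brightest. In simulated data 61 of 100 planted log2 changes of 2 and 35 of 100 of 1 were called in the hypoxia comparison, with 7 calls among 54475 probesets left unchanged. The members, gene lists and rules were chosen with earlier results of these data known. The genes named were the members, in each list those that passed or else the 3 with the smallest p, those examined as MYCN partners or markers, and the 3 most alike. EPAS1, HIF1A, SGK1, RAB4A, GSK3B and the TGM2 levels were singled out after their values were seen. Some listed genes were not analysed here.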

Additional observations from a re-analysis of the deposited data

How the results depend on the processing

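The direction of the NDRG1 change held in all 22 alternatives (2.11 to 2.50), but its call did not. Its adjusted p by limma passed with the signals as deposited (2.33, 0.0175), after quantile normalization (2.28, 0.0186), with a floor of 50 (0.00326) and with a filter at a mean signal of 100 (0.00487). It missed 0.05 with the 3 SHEP lines averaged (2.21, 0.111), with IMR-32, SK-N-SH and GI-LI-N averaged (2.50, 0.106), without both SHEP21N lines (2.32, 0.130) and with no replicate block (2.30, 1.0), and leaving out 1 line gave 2.11 to 2.42 (0.0352 to 0.0744). The 3 pair comparisons kept their side of 0.05 in all 18 alternatives each. Averaging lines leaves fewer of them in the fit. Of the 11 single omissions, 6 kept the call and 5 did not, and the cause of the lost calls was not tested.

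The near-zero changes of the other members turned sign. NDRG2 gave -0.050 after quantile normalization, -0.27 with the floor of 50, -0.22 as the mean of its probesets, -0.18 with the SHEP lines averaged, -0.15 with the 3 alike lines averaged, -0.29 without both SHEP21N lines and -0.20 to 0.26 when 1 line was left out. At 214279_s_at it was 0.050 with the floor and -0.41 to 0.0052 without 1 line. Without both SHEP21N lines NDRG3 gave -0.017, its probeset 221082_s_at -0.026 and NDRG4 -0.010. With the SHEP lines averaged NDRG3 gave -0.0060 and NDRG4 -0.092, and with the alike lines averaged 221082_s_at gave -0.015. Leaving out 1 line gave -0.014 to 0.10 at 221082_s_at and -0.092 to 0.26 for NDRG4. The filter left NDRG2 untested at 214279_s_at and 214278_s_at.

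The MYCN-low minus MYCN-high difference kept its sign for NDRG1 (1.68 to 3.11) and NDRG4 (-3.20 to -2.20). For NDRG2 it was -0.55 with the alike lines averaged, -0.15 without both SHEP21N lines and -0.041 to 1.15 without 1 line. For NDRG3 it was -0.38 as the mean of its probesets, -0.29 without both SHEP21N lines and -0.063 to 0.40 without 1 line. The F value of NDRG2 between lines ran from 3.42 without GI-LI-N (adjusted p = 0.0563 by limma) to 6.90.

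Over all probesets the 25 higher and 1 lower calls became 69 and 25 with the floor, 72 and 23 with the filter, 9 and 0 with the SHEP lines averaged or with no replicate block, 12 and 0 without both SHEP21N lines, and 0 and 0 by limma with the alike lines averaged, where 3959 probesets had an unadjusted p under 0.05. Quantile normalization left 0 lower and the paired t-test gave 26 lower. Leaving out 1 line gave 8 (GI-LI-N or SHEP-2) to 24 higher and 0 lower. The omission of SK-N-SH gave 12 higher, that of SK-N-F1 9 and that of ACN or IMR-32 16.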
